A study of Saccharomyces cerevisiae YPS1009 with 18 samples.

Results

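The proteasome is the protease that degrades proteins marked with ubiquitin. Its core particle is a stack of rings, with outer alpha rings that gate entry and inner beta rings that carry the proteolytic sites. The regulatory particle caps the core. Its base holds a ring of ATPases that unfold and thread substrates, and its lid removes ubiquitin. In yeast, proteasome activity is known to matter for survival in stationary phase, the state that follows nutrient exhaustion, and proteasomes leave the nucleus as cells enter it. The transcription factor Rpn4 drives the genes of most subunits.

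Plasmids that each add a single proteasome gene were followed through 28 days of culture in the YPS1009_Chr12 aneuploid strain AGY1612 and the euploid strain AGY1611. The 36 listed genes encode subunits of the core particle (13 genes), subunits of the regulatory particle (19 genes), and 4 further factors: the transcription factor RPN4, the core maturation factor UMP1, the core activator BLM10 and the core-cap tether ECM29. They were taken from the table by systematic name. Of the 36, 32 have a row among the 4872 plasmids, and 29 were among the 4508 plasmids that passed the filter on low counts. These 29 comprise 12 core genes, 15 regulatory particle genes, RPN4 and UMP1.

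Every plasmid came from the MoBY collection: it is kept at low copy number, holds a single gene flanked by its native DNA, and is identified by its barcode. Both hosts are haploid MATa derivatives of the oak isolate YPS1009 with a deleted ho gene and a NatMX cassette between genes of chromosome XII. AGY1612 in addition carries a second copy of chromosome XII, with a His3MX6 cassette and a his3 deletion. Which strain number stands for which ploidy is stated in the study's methods and in the count table's header, not in the sample labels. Libraries were made from the frozen starting pool (T0) and from day 1 and day 28 of growth in YPD containing G418, which kills cells that lose their plasmid. Each of the 6 groups had 3 replicates. The day 1 and day 28 cells were plated and grown for 48 hours before harvest, so those barcodes are counted in cells that could regrow, while the T0 cells were pelleted directly. Comparisons with T0 therefore cannot tell time in culture apart from growth and plating. The triplicates came from 2 transformations of each strain, and which replicate came from which is not given. A plasmid's level measures the share of cells that carry it, not the expression of its gene.

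Total counts were 3491412 to 5211070 at T0, 1222135 to 1925967 at day 1 and 503569 to 1338206 at day 28 in AGY1612, and 6138798 to 6298768, 904993 to 1104929 and 717911 to 1302971 in AGY1611. Levels are given as CPM, counts per 1000000 counts after TMM scaling. Replicates at T0 were close, with correlations of log2 CPM over plasmids of 0.973 to 0.996 in AGY1612 and 0.989 to 0.994 in AGY1611, against 0.771 to 0.805 and 0.724 to 0.798 at the later times. AGY1612 T0 replicate 1 stood apart from replicates 2 and 3 of its group, with a chi-square per degree of freedom of 11.4 and 15.2, against 1.83 between the other two. Calls that rest on the AGY1612 T0 libraries are therefore given also without it. Leaving it out moved the members' median log2(fold change) in AGY1612 to 0.57 at day 1 and 0.79 at day 28, against 0.50 and 0.78 with it.

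Not every member could be followed. PRE8 (YML092C, an alpha ring subunit), RPN1 (YHR027C, the base scaffold that docks shuttle receptors), RPN13 (YLR421C, a ubiquitin receptor) and BLM10 (YFL007W) have no row and were not analysed here. RPN13 is the only listed gene on chromosome XII, so none of the members described below lies on the duplicated chromosome. The lid genes RPN5 (YDL147W) and RPN6 (YDL097C) had 0 counts in all 18 libraries. ECM29 (YHL030W) was below the filter, with 4.66 ± 1.49 CPM at T0 in AGY1612 and 4.96 ± 0.173 CPM in AGY1611 (SD, n = 3 each). At day 28 it was at 0, 0 and 1.08 CPM in AGY1612 and had no count in any AGY1611 library, at least 1.51-fold lower than at T0. For plasmids with 0 counts, this bound sets 3 counts per library against the T0 mean and covers counting error only.

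Summed over each particle, the plasmids had higher TMM-scaled levels at the later times than at T0. The TMM factors were 1.13 to 1.14 at T0 and 0.856 to 1.05 later. Sums in CPM therefore rise more from T0 than raw shares of counts do, and counts of libraries above T0 can be lower in raw shares. The summed level of the 12 core plasmids in AGY1612 was 2383 ± 97.8 CPM at T0, 3436 ± 186 CPM at day 1 and 4614 ± 1469 CPM at day 28 (SD, n = 3). In AGY1611 it was 2354 ± 35.7 CPM, 4347 ± 2240 CPM and 4155 ± 633 CPM at the same times. For both strains and for both particles, each of the 6 later libraries lay above each T0 library. A single plasmid carried much of the day 28 core sum of AGY1612: without PRE1 the sum was 3096 ± 292 CPM.

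The 17 regulatory particle plasmids with a row, including RPN5 and RPN6 at 0, summed to 2599 ± 141 CPM at T0, 5224 ± 644 CPM at day 1 and 4552 ± 304 CPM at day 28 in AGY1612. In AGY1611 they summed to 2571 ± 48.2, 4597 ± 964 and 4267 ± 331 CPM. Both sums were thus above T0 by day 1. Within the core, AGY1611 day 1 replicate 3 stood out with 6934 CPM, against 3013 and 3096 CPM in replicates 1 and 2, and its alpha ring plasmids alone summed to 5746 CPM. Within the cap, the 6 ATPase plasmids summed to 1578 ± 275 CPM at day 28, against 899.8 ± 114 CPM at T0, in AGY1612, and to 1989 ± 172 CPM, against 843.7 ± 19.2 CPM, in AGY1611. The beta ring sum of AGY1612 did not share this pattern once PRE1 was left out. The other 5 beta ring plasmids summed to 820.2 ± 41.4 CPM at T0, 904.7 ± 146 CPM at day 1 and 853.8 ± 115 CPM at day 28. In these sums, 3 of 6 later libraries lay above all T0 libraries. At day 28, 4 of the 6 beta ring plasmids had a negative log2(fold change) (median -0.20). PRE4 (YFR050C), chosen here after its values were seen, went the other way. It was at 270.9, 379.0 and 467.1 CPM at day 28, against 233.4, 175.4 and 195.1 CPM at T0. In AGY1611 the 5 beta ring plasmids other than PRE1 summed to 811.4 ± 2.49, 938.5 ± 197 and 1192 ± 522 CPM, with 5 of 6 later libraries above T0. Both of these counts, 3 of 6 and 5 of 6, rest on TMM scaling. In raw shares of counts, fewer later libraries lay above T0 in each strain. These sums weight abundant plasmids and were not tested.

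**Figure D1:**
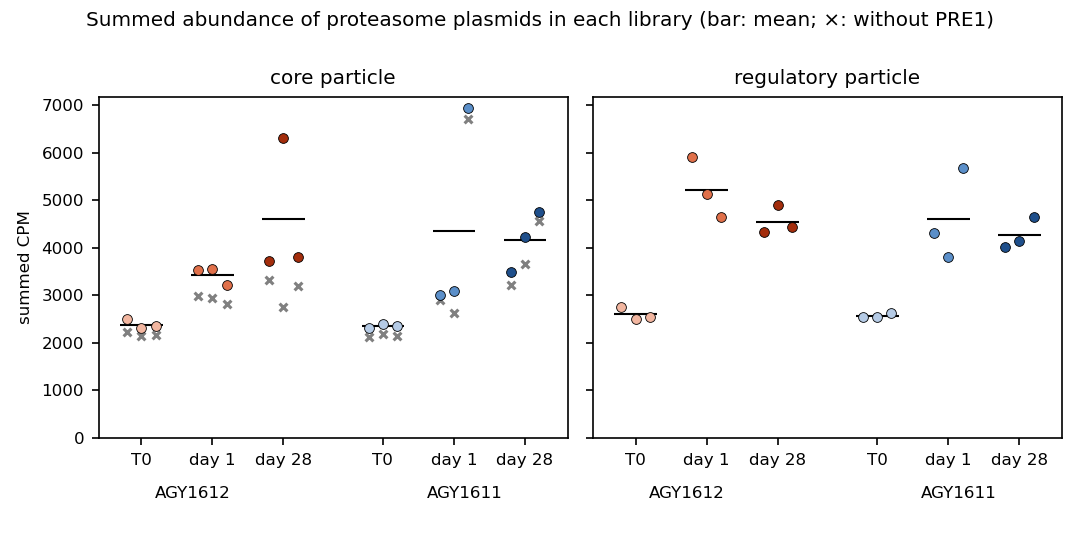
Summed CPM of the core particle plasmids (left) and the regulatory particle plasmids (right) in each of 18 libraries; points are replicates, bars are group means and crosses leave out PRE1. All later libraries lie above the T0 libraries of their strain, which span 2307 to 2493 CPM (core) and 2502 to 2761 CPM (regulatory particle) in AGY1612.

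The members as a whole held 0.560 to 0.616% of all counts at T0 over both strains and 0.704 to 1.11% in the 12 later libraries. In each of those 12 libraries the share of tested members above their own T0 mean exceeded the share of all tested plasmids. It was 58.6 to 72.4% in AGY1612, against 45.9 to 49.4% of all plasmids, and 44.8 to 75.9% in AGY1611, against 39.8 to 50.6%. Single T0 libraries differed as well. The share was 55.2%, against 41.7%, in AGY1612 T0 replicate 1 and 62.1%, against 45.3%, in AGY1611 T0 replicate 3. In the other T0 libraries it was below that of all plasmids. Later libraries of a strain are set against the same T0 means, so the 12 are not independent. The heat map of all members shows that the later libraries of a group differed widely for most members. In each later group, 14 to 16 of the 29 members overlapped their T0 libraries, and the rest lay wholly above or below. Shares of all plasmids are given with each comparison below.

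**Figure D2:**
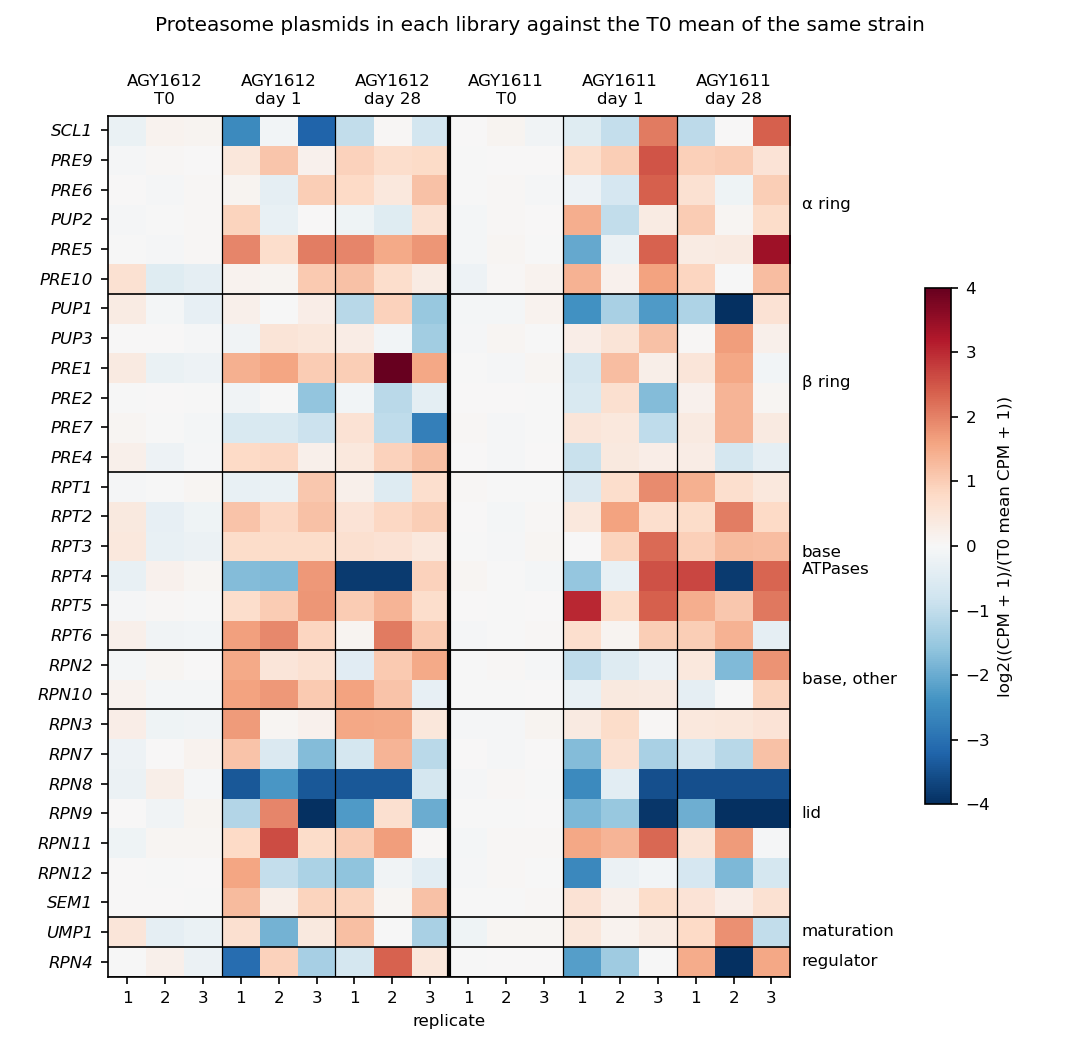
Each row is a tested member, grouped by its place in the proteasome, and each column a library; colour is log2((CPM + 1)/(T0 mean CPM + 1)) against the same strain, and values beyond 4 in either direction take the end colours. T0 columns are nearly uniform, while day 1 and day 28 columns differ between replicates, and RPN8 lies below T0 in all of them.

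The first comparison asked which proteasome plasmids differed between T0 and day 28 in AGY1612. With edgeR's quasi-likelihood test, adjusted over all plasmids, 4 of 29 members rose and 0 fell at FDR < 0.1, while 6.99% of all tested plasmids rose and 12.9% fell. The 4 were PRE1 in the core and RPT6, RPN3 and SEM1 in the regulatory particle. An unadjusted p under 0.05 was reached by 9 members, against 27.2% of all plasmids, a share near that of the members. The median log2(fold change) was 0.78 over the members (20 of 29 positive), against 0.19 over all plasmids, with 0.42 in the core and 0.79 in the regulatory particle. The groups did not overlap, with day 28 above T0, for 10 members, and with day 28 below T0 for 3, against 21.1% and 27.3% of all plasmids.

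PRE1 (YER012W), which encodes a beta ring subunit without a proteolytic site, had the largest rise among the called members of this comparison. Its plasmid was at 408.5, 3545 and 601.2 CPM in the day 28 libraries of AGY1612, against 263.4, 170.4 and 178.8 CPM at T0. All 3 day 28 libraries lay above all T0 libraries, and replicate 2 stood far above replicates 1 and 3. The log2(fold change) was 2.90 ± 0.63 (SE, FDR = 0.00591). Without AGY1612 day 28 replicate 2 it was 1.46 ± 0.50 (FDR = 0.0761), and without AGY1612 T0 replicate 1 it was 3.12 ± 0.77 (FDR = 0.0223). The call held under every alternative tried, FDR 0.0761 being the highest.

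PRE1 was already high at day 1 in AGY1612, at 550.7, 607.5 and 409.9 CPM, again above all T0 libraries, but the change from T0 was not called (1.36 ± 0.60, FDR = 0.201). From day 1 to day 28 its difference was 1.54 ± 0.60 (FDR = 0.303). In AGY1611 the PRE1 plasmid was at 278.2, 581.7 and 184.7 CPM at day 28, against 196.9, 190.9 and 208.5 CPM at T0. These groups overlapped, and the difference was 0.81 ± 0.60 (FDR = 0.426). The change over 28 days in AGY1612 exceeded that in AGY1611 by 2.08 ± 0.85 on the log2 scale, which did not pass the test (FDR = 0.594, unadjusted p = 0.022).

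The other 3 members called in AGY1612 belong to the regulatory particle, and their changes were smaller. RPT6 (YGL048C), an ATPase of the base ring, was at 164.2, 647.9 and 314.7 CPM at day 28, against 177.4, 139.7 and 140.2 CPM at T0 (1.31 ± 0.50, FDR = 0.0851). The groups overlapped, since replicate 1 at day 28 lay below replicate 1 at T0. RPN3 (YER021W), a structural lid subunit, was at 595.2, 577.2 and 280.1 CPM at day 28, against 244.6, 180.7 and 183.3 CPM at T0 (1.25 ± 0.43, FDR = 0.0585). SEM1 (YDR363W-A), the small lid subunit that bridges lid subunits during assembly, was at 1219, 703.0 and 1504 CPM at day 28, against 666.5, 660.9 and 654.9 CPM at T0 (0.79 ± 0.30, FDR = 0.0822). For RPN3 and SEM1 all day 28 libraries lay above all T0 libraries. The same held in AGY1611, where none of the 3 was called. There RPN3 was at 278.2, 283.8 and 307.4 CPM at day 28, against 202.1, 199.9 and 224.1 CPM at T0. SEM1 was at 976.6, 802.2 and 1020.5 CPM, against 652.5, 661.9 and 684.3 CPM. RPT6 in AGY1611 was at 270.1, 358.5 and 106.0 CPM, against 130.6, 135.4 and 141.9 CPM, and overlapped T0.

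All 3 of these calls were lost when any AGY1612 T0 library was left out, with FDR 0.108 to 0.186 for RPN3, 0.195 to 0.21 for SEM1 and 0.159 to 0.229 for RPT6. Without AGY1612 T0 replicate 1 the log2(fold change) was 1.41 for RPN3 (FDR = 0.108), 0.79 for SEM1 (FDR = 0.195) and 1.43 for RPT6 (FDR = 0.159). Leaving out any AGY1611 T0 library also ended the calls of SEM1 (FDR 0.112 to 0.113) and RPT6 (FDR = 0.111). Of the day 28 libraries of AGY1612, replicate 1 or replicate 2 decided the call of RPN3 (FDR = 0.102 without either), replicate 3 that of SEM1 (0.67, FDR = 0.16) and replicate 2 that of RPT6 (0.81, FDR = 0.325). Of 9 other settings, 3 ended the call of RPN3 (FDR < 0.05, RLE and total-count scaling) and 6 each those of SEM1 and RPT6, with FDR up to 0.176 for RPN3, 0.308 for SEM1 and 0.215 for RPT6.

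**Figure D3:**
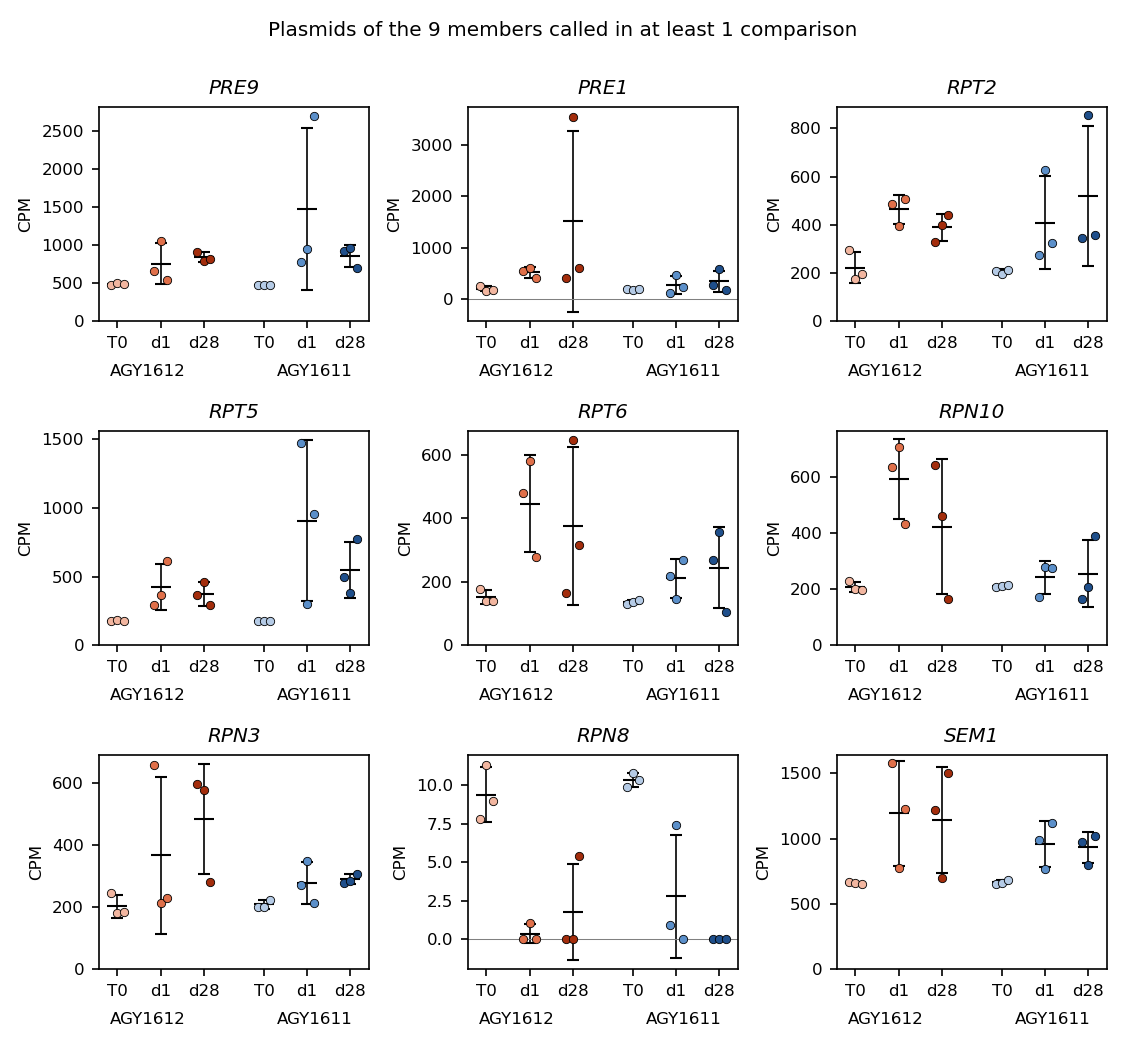
CPM of the 9 members called in at least 1 comparison, in each library, with mean ± SD of 3 replicates; axes differ between panels and start at 0, or lower where an error bar reaches below it. PRE1 in AGY1612 at day 28 is carried by replicate 2 at 3545 CPM, whereas the 3 RPT5 libraries of AGY1611 at day 28 lie between 377.8 and 770.7 CPM, all above T0.

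In AGY1611, 2 members rose and 1 fell at day 28 compared to T0 in the same edgeR fit, against 5.12% and 9.49% of all plasmids. Both rises were of base ATPases, and the fall was that of the lid gene RPN8. An unadjusted p under 0.05 was reached by 7 members, against 24.2% of all plasmids, again a share near that of the members. The median was 0.78 (24 of 29 positive), against 0.16 over all plasmids, with 0.78 in the core and 0.76 in the regulatory particle. Without AGY1611 day 28 replicate 2 it was 0.60, against 0.19. Groups did not overlap for 11 members with day 28 above T0 and for 3 with day 28 below T0, against 20.8% and 25.4% of all plasmids.

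RPT5 (YOR117W), an ATPase whose tail docks into the alpha ring, was at 494.2, 377.8 and 770.7 CPM in AGY1611 at day 28, against 179.0, 177.5 and 179.5 CPM at T0 (1.61 ± 0.44, FDR = 0.0256). All 3 day 28 libraries lay at more than 2-fold the T0 level. The call held under every alternative tried and without any single library, with FDR between 0.00722 and 0.0919 over the libraries left out. In AGY1612 the same plasmid was at 365.4, 463.7 and 293.0 CPM at day 28, against 174.1, 185.0 and 177.4 CPM at T0 (1.06 ± 0.44, FDR = 0.112), likewise with no overlap. The strain difference was -0.55 ± 0.61 (FDR = 0.978).

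RPT2 (YDL007W), the ATPase known for opening the gate of the core, was at 344.2, 853.2 and 358.8 CPM at day 28, against 209.1, 194.8 and 213.6 CPM at T0, in AGY1611 (1.33 ± 0.40, FDR = 0.0406). Its call was lost without AGY1611 day 28 replicate 2 (0.87, FDR = 0.184) and without any AGY1611 T0 library (FDR 0.126 to 0.143), and also with total counts (1.01, FDR = 0.141) and limma voom (1.26, FDR = 0.115). In AGY1612 it was at 328.4, 397.3 and 442.3 CPM at day 28, against 295.1, 176.0 and 196.6 CPM at T0 (0.81 ± 0.40, FDR = 0.198), and AGY1612 T0 replicate 1 was the highest of the T0 values in either strain. Of the 6 ATPase plasmids, all 6 had a positive log2(fold change) in AGY1611 (median 1.25) and 5 in AGY1612 (median 0.68), the exception being RPT4 (YOR259C). RPT4 was a rare plasmid. It was at 0, 0 and 26.0 CPM at day 28, against 10.6, 15.1 and 14.3 CPM at T0, in AGY1612, and at 90.3, 0 and 71.2 CPM, against 13.3 ± 0.743 CPM (SD, n = 3), in AGY1611. Replicates of both strains thus lay on both sides of T0.

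RPN8 (YOR261C), the lid partner of the deubiquitinase Rpn11, was among the rarest members at T0. In AGY1611 it had 0, 0 and 0 counts at day 28, against 69, 76 and 74 counts at T0, and was at least 3.14-fold lower (FDR = 0.0414). In AGY1612 it had 0, 0 and 5 counts at day 28, against 43, 45 and 53 at T0, and the difference was not called (FDR = 0.322). It had 0, 2 and 0 counts at day 1 in AGY1612, and 1, 7 and 0 in AGY1611. All later libraries in both strains lay below all T0 libraries. The call in AGY1611 was lost without day 28 replicate 2 (FDR = 0.108) and under DESeq2 (FDR = 0.112).

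**Figure D4:**
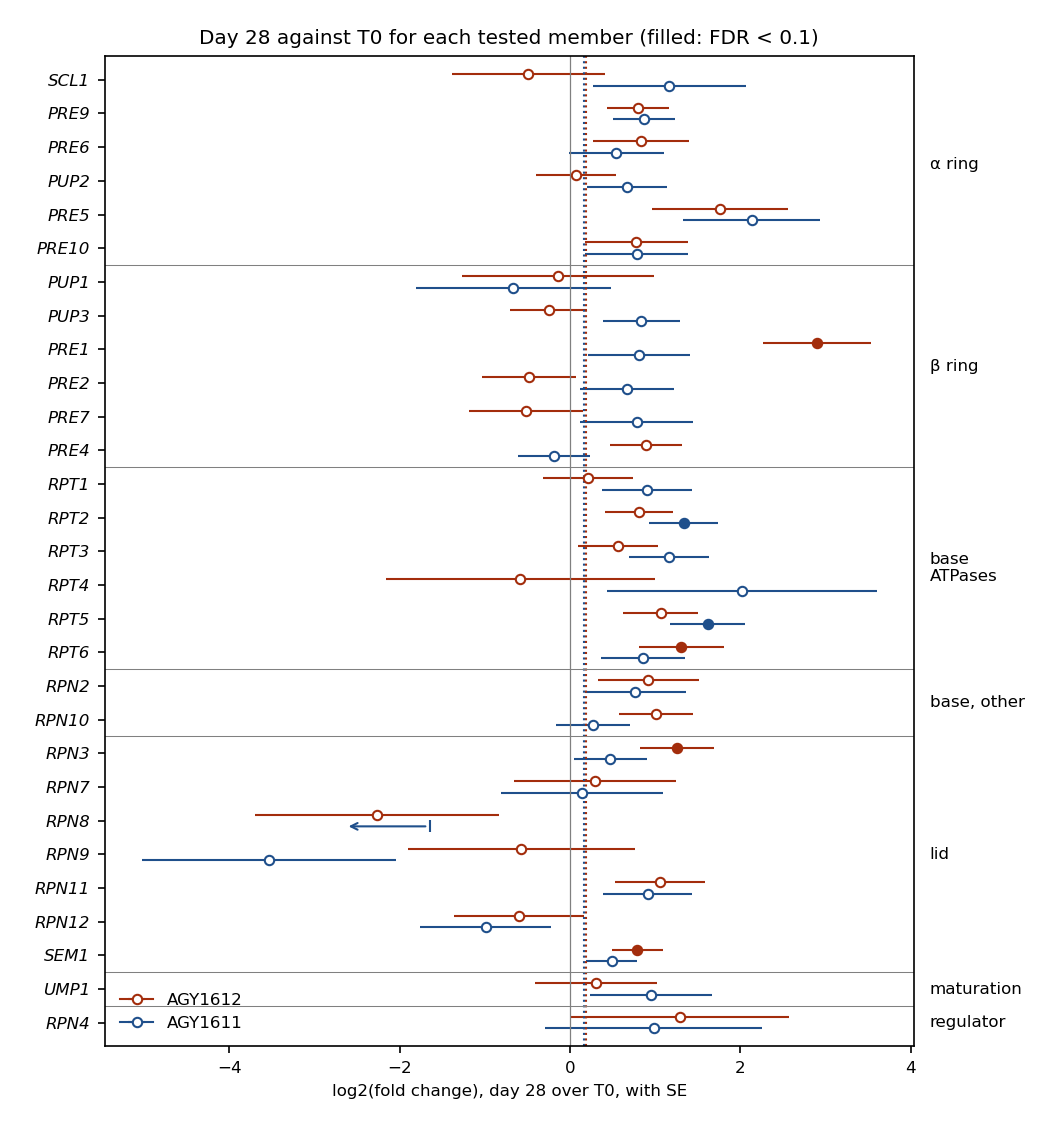
log2(fold change) at day 28 over T0 with its SE for each tested member, AGY1612 (upper point) and AGY1611 (lower point); filled points have FDR < 0.1, dotted lines are the medians of all plasmids (0.19 and 0.16), and the arrow gives the bound for RPN8, whose counts were 0. Most points lie right of the medians, and the error bars are widest for the rare plasmids RPT4, RPN8, RPN9 and RPN4.

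Some members without a call had log2(fold change) values as large as called ones. In the core, the highest uncalled member in AGY1612 was PRE5 (YMR314W), an alpha ring subunit, at 457.7, 339.7 and 397.9 CPM at day 28, against 117.0, 112.9 and 122.7 CPM at T0 (1.76 ± 0.80, FDR = 0.154). All its day 28 libraries lay at more than 2-fold T0. In AGY1611 it was at 147.3, 152.0 and 1260 CPM, against 112.2, 124.9 and 117.9 CPM (2.13 ± 0.81, FDR = 0.101), with replicate 3 far above the rest. The lowest in the core was PRE7 (YBL041W), a beta ring subunit, at 170.4, 55.9 and 16.2 CPM at day 28, against 121.4, 112.2 and 108.6 CPM at T0, in AGY1612 (-0.51 ± 0.67, FDR = 0.65), and at 156.3, 310.2 and 154.4 CPM, against 124.7, 117.7 and 118.8 CPM, in AGY1611 (0.78 ± 0.67, FDR = 0.496).

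In the regulatory particle, the highest uncalled member in AGY1612 was RPT5, called in AGY1611. RPN11 (YFR004W), the lid deubiquitinase, and the ubiquitin receptor RPN10 came next to it. RPN11 was at 332.5, 518.7 and 167.6 CPM at day 28, against 144.6, 172.4 and 173.8 CPM at T0, in AGY1612 (1.05 ± 0.52, FDR = 0.198), and at 241.2, 549.2 and 162.0 CPM, against 159.4, 174.8 and 173.2 CPM, in AGY1611 (0.91 ± 0.52, FDR = 0.294). In both strains replicate 2 was highest and replicate 3 lay within the T0 range. RPN12 (YFR052W), a lid subunit that joins late in lid assembly, was the lowest member of the regulatory particle at day 28 in AGY1612 other than RPN8. It was at 39.0, 108.3 and 88.7 CPM, against 121.4, 118.2 and 120.4 CPM at T0 (-0.60 ± 0.76, FDR = 0.641), and in AGY1611 at 74.1, 33.4 and 72.7 CPM, against 115.1, 123.7 and 119.2 CPM (-0.99 ± 0.77, FDR = 0.446). Its day 28 libraries lay below its T0 libraries in both strains, without a call in either. Another lid gene, RPN9 (YDR427W), chosen here after its values were seen, was at 19.9, 0 and 0 CPM at day 28, against 79.8, 79.6 and 80.2 CPM at T0, in AGY1611. That difference missed the threshold in edgeR (-3.53 ± 1.49, FDR = 0.146) but passed it in DESeq2 (FDR = 0.0412) and limma voom (FDR = 0.00562). In AGY1612 the RPN9 plasmid was at 14.4, 112.6 and 17.3 CPM at day 28, against 73.6, 65.8 and 77.2 CPM at T0 (-0.57 ± 1.33, FDR = 0.81), on both sides of T0.

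RPN4 (YDL020C), the activator of proteasome genes, was a rare plasmid with an erratic level. It was at 20.8, 24.2 and 17.5 CPM at T0, 1.7, 40.5 and 7.7 CPM at day 1 and 12.3, 110.0 and 29.2 CPM at day 28 in AGY1612. In AGY1611 it was at 21.1, 21.5 and 21.8 CPM at T0, 3.8, 7.4 and 21.0 CPM at day 1 and 62.3, 0 and 65.1 CPM at day 28. The day 28 differences from T0 were 1.29 ± 1.28 (FDR = 0.545) in AGY1612 and 0.98 ± 1.28 (FDR = 0.676) in AGY1611, with standard errors as large as the values. The maturation factor UMP1 (YBR173C) had 0.30 (FDR = 0.812) in AGY1612 and 0.95 (FDR = 0.436) in AGY1611.

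Day 1 was compared with T0 to see how early the differences arose. In AGY1612, 1 member rose and 0 fell, against 1.11% and 1.75% of all plasmids, and the median was 0.50 over the members, against 0.13 over all plasmids. Without AGY1612 day 1 replicate 3 the median was 0.99, against 0.29. The called member was RPN10 (YHR200W), which binds ubiquitin chains, at 637.3, 708.4 and 433.9 CPM at day 1, against 231.1, 199.9 and 199.3 CPM at T0 (1.50 ± 0.44, FDR = 0.0983). Its day 1 libraries were all above T0. By day 28 it was at 642.5, 461.9 and 166.5 CPM (1.01 ± 0.44 against T0, FDR = 0.134), with replicate 3 below T0. In AGY1611 it was at 174.7, 280.1 and 275.4 CPM at day 1, against 209.5, 212.1 and 217.0 CPM at T0 (0.19 ± 0.43, FDR = 0.838).

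At day 1 in AGY1612, groups did not overlap for 12 members above T0 and 2 below, against 18.3% and 25.9% of all plasmids. A positive log2(fold change) was found for 14 of the 15 regulatory particle plasmids (median 0.85), against 2467 of all 4508. In AGY1611 at day 1 it was found for 10 of the 15 (median 0.52), against 2350 of all 4508. The RPN10 call was lost without any T0 library (FDR 0.284 to 0.29 for AGY1612, with 1.57 and FDR = 0.287 without replicate 1, and 0.158 to 0.16 for AGY1611). It was also lost at FDR < 0.05 and under 4 of the other alternatives.

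In AGY1611, 2 members rose at day 1 and 0 fell, against 0.244% and 0.0444% of all plasmids. They were RPT5, at 1467, 300.2 and 951.1 CPM, against 179.0, 177.5 and 179.5 CPM at T0 (2.34 ± 0.45, FDR = 0.0794), and the alpha ring gene PRE9, at 776.4, 950.2 and 2699 CPM, against 472.3, 476.5 and 475.4 CPM (1.64 ± 0.37, FDR = 0.0932). PRE9 (YGR135W) is the subunit of the core that yeast can live without. Both were above T0 in all 3 libraries, by factors that differed widely between replicates. In AGY1612 at day 1, RPT5 was at 294.7, 365.2 and 615.3 CPM (1.25 ± 0.44, FDR = 0.133) and PRE9 at 667.7, 1056 and 548.2 CPM (0.64 ± 0.36, FDR = 0.316), all above T0.

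The median of the members at day 1 in AGY1611 was 0.52, against 0.05 over all plasmids, and without AGY1611 day 1 replicate 3 it was 0.46, against 0.16. Groups did not overlap for 9 members above T0 and 6 below, against 13.4% and 26.8% of all plasmids. Leaving out any T0 library ended both calls, with FDR 0.45 to 0.475 for AGY1611 libraries and 0.131 to 0.183 for AGY1612 libraries, and so did leaving out AGY1611 day 1 replicate 1 for RPT5 (1.81, FDR = 0.105). By day 28 PRE9 was at 917.5, 792.9 and 820.7 CPM in AGY1612 (0.79 ± 0.36, FDR = 0.159) and at 926.0, 966.5 and 695.0 CPM in AGY1611 (0.86 ± 0.36, FDR = 0.145), above T0 in every library of both strains but called in neither.

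From day 1 to day 28, 0 members were called in either strain by edgeR, against 1.53% of all plasmids in AGY1612 and 0.954% in AGY1611. An unadjusted p under 0.05 was reached by 1 member in AGY1612 and 3 in AGY1611, against 11.4% and 9.52% of all plasmids. DESeq2 and limma voom also called 0 in both strains. The medians over the members were -0.06 in AGY1612 and 0.08 in AGY1611. All 6 ATPase plasmids had a negative log2(fold change) over this interval in AGY1612, with a median of -0.21, and 3 of 6 in AGY1611.

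The strains were then compared in their change from T0. For day 28, 0 members differed at FDR < 0.1, against 0.266% of all plasmids, and 1 had an unadjusted p under 0.05, against 6.94%. For day 1, 0 members differed, against 0% of all plasmids, and again 1 had an unadjusted p under 0.05, against 3.82%. At day 28, the signed log2(fold change) was higher in AGY1612 for 15 of 29 members and higher in AGY1611 for 14. By place in the proteasome, with no test of the split, it was higher in AGY1612 for all 7 lid plasmids (median difference 0.39). It was higher in AGY1611 for 5 of 6 ATPase plasmids and 5 of 6 alpha ring plasmids (median differences -0.57 and -0.22). RPN8, RPN9 and RPN12 are among the 7 and had negative values in both strains, less negative in AGY1612. RPN8 and RPN9 had 0 counts in most AGY1611 day 28 libraries, so the size of their difference is not known.

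Mean T0 levels of the tested members ran between 9.40 and 660.8 CPM in AGY1612 and between 10.3 and 666.3 CPM in AGY1611, and 4 members, PUP1, RPT4, RPN8 and RPN4, were under 30 CPM in both. When all tested plasmids were split into quartiles of T0 level, the lowest quartile had a median log2(fold change) at day 28 of -0.47 in AGY1612 and -0.53 in AGY1611, while the other quartiles had medians of 0.21 to 0.35 and 0.20 to 0.29. By rising quartile, the members numbered 7, 9, 9 and 4 in AGY1612 and 7, 9, 10 and 3 in AGY1611.

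Within each quartile the members had the higher median at day 28. It was -0.14, 0.56, 0.89 and 0.43 by rising quartile in AGY1612, against -0.47, 0.21, 0.35 and 0.27 for all plasmids, and 0.14, 0.95, 0.72 and 0.67 in AGY1611, against -0.53, 0.20, 0.29 and 0.28. At day 1 the same held in AGY1612, but not for the lowest quartile in AGY1611, where the members had -1.0 and all plasmids -0.68. These are medians over few plasmids, with no test.

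**Figure D5:**
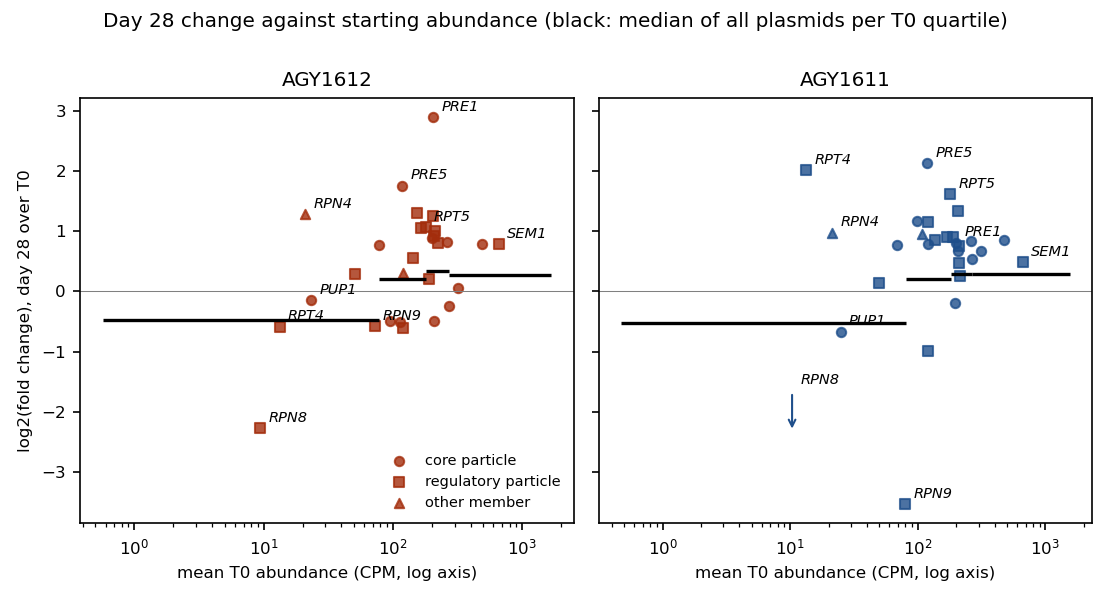
log2(fold change) at day 28 over T0 against mean T0 level (log axis) for the tested members in AGY1612 (left) and AGY1611 (right); marker shape gives the particle, black lines are medians of all plasmids per T0 quartile and the arrow is the bound for RPN8. Most members above about 100 CPM at T0 lie above the black lines, and the rare ones scatter in both directions.

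The wider pathway was described with 22 genes, of which 16 were tested. They are genes of proteasome assembly, of proteasome-associated factors, of substrate delivery and of the control of RPN4, and the core subunit gene PRE3. At day 28 in AGY1612, 3 of the 16 rose and 1 fell in the edgeR fit, against 6.99% and 12.9% of all plasmids. DSK2 (YMR276W), a shuttle receptor that carries ubiquitinated proteins to the proteasome, was at 882.6, 590.3 and 762.3 CPM, against 166.1, 318.6 and 330.2 CPM at T0 (1.45 ± 0.40, FDR = 0.0208). DDI1 (YER143W), another shuttle receptor, was at 564.5, 337.9 and 209.8 CPM, against 192.0, 169.6 and 179.3 CPM (1.04 ± 0.41, FDR = 0.097). FUB1 (YCR076C), a proteasome-associated factor, was at 422.8, 689.0 and 520.1 CPM, against 251.1, 250.6 and 269.2 CPM (1.08 ± 0.37, FDR = 0.0531). For all of these the day 28 libraries lay above the T0 libraries. AGY1612 T0 replicate 1 was the low T0 value of DSK2, and without it no rise was called for DSK2 (1.20, FDR = 0.113), DDI1 (1.08, FDR = 0.199) or FUB1 (1.07, FDR = 0.153). Leaving out either other AGY1612 T0 library also ended the calls of DDI1 and FUB1 (FDR 0.135 to 0.255), and any AGY1611 T0 library that of DDI1 (FDR = 0.132). The DDI1 call was further lost without day 28 replicate 1 (0.72, FDR = 0.259), and the FUB1 call without day 28 replicate 2 (1.03, FDR = 0.105). Other settings ended these calls too: 6 of them that of DDI1 (RLE, total counts, no filter, DESeq2, the replicate block and only the groups compared, FDR 0.105 to 0.275), total counts that of FUB1 (FDR = 0.168) and limma voom that of DSK2 (FDR = 0.103). At FDR < 0.05 DDI1 and FUB1 were not called.

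The third shuttle receptor, RAD23 (YEL037C), had the opposite direction. It had 0 counts in all 3 day 28 libraries of AGY1612 and was at least 4.36-fold lower than its 17.5 ± 3.12 CPM at T0 (FDR = 0.0339). In AGY1611 it was at 1.81, 0 and 0 CPM at day 28, against 18.6 ± 1.10 CPM at T0 (FDR = 0.0945). UBP6 (YFR010W), the deubiquitinase that recycles ubiquitin at the cap, fell in AGY1611, at 181.6, 138.8 and 175.6 CPM at day 28, against 486.1, 505.6 and 455.6 CPM at T0 (-1.55 ± 0.44, FDR = 0.03). In AGY1612 it was at 285.3, 581.6 and 195.7 CPM, against 472.3, 513.0 and 512.7 CPM (-0.49 ± 0.43, FDR = 0.481), and the strain difference of 1.05 ± 0.61 was not called (FDR = 0.839). Without AGY1611 day 28 replicate 2 the fall of UBP6 was not called (-1.33, FDR = 0.114), and that of RAD23 was lost when any T0 library was left out (FDR 0.133 to 0.191), and without AGY1611 day 28 replicate 2 or 3 (FDR 0.181 to 0.22) or day 1 replicate 1 or 2 (FDR 0.101 to 0.104). The fall of RAD23 in AGY1612 was lost without day 28 replicate 2 (FDR = 0.102) and kept without T0 replicate 1 (FDR = 0.0684). RAD23 and UBP6 were the 2 pathway calls in AGY1611, with 0 of 16 higher and 2 lower, against 5.12% and 9.49% of all plasmids. The medians of the 16 genes were 0.63 in AGY1612 and 0.45 in AGY1611, against 0.19 and 0.16 over all plasmids.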

How the data were processed

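Raw counts of sequenced barcodes were deposited by the authors, 1 row per plasmid and without normalization. The counting program and genome build are not given in the sources used here. Members were matched by systematic name, and symbols were checked against the RefSeq table of assembly R64. The members, gene lists and tests were chosen with earlier results of these data known. Counts were tested in R 4.3.3 with edgeR 4.0.16 (filterByExpr by group, TMM, quasi-likelihood F-test, two-sided) over all 18 libraries, so that all groups shared 1 spread per plasmid. P-values were adjusted by Benjamini-Hochberg over 4508 plasmids (threshold FDR < 0.1). The SE is the size of the log2(fold change) over the square root of F. Fits were also run on simulated counts with 1 spread per plasmid in all groups. The simulation lacks the closer T0 replicates of these data, so it cannot show how the pooled spread affects the calls. Named members were those called in any of 8 comparisons, the extreme uncalled members of each particle in AGY1612 at day 28, PRE1, RPN11 and RPN4. From the pathway list, genes called at day 28 were named. Alternatives were RLE and total-count scaling, no filter, 20 counts in 3 libraries, DESeq2 1.42.0, limma 3.58.1 voom with group weights, only the groups compared, a replicate block, FDR < 0.05 and each library left out. Day 1 and day 28 libraries of 1 replicate number shared their deviations from the group means (r = 0.145 to 0.504) and were taken as paired, while those of T0 and later times did not. No fit modelled this pairing within a strain. Figures were drawn with matplotlib 3.10.9. P-values of the main fit measure the spread between these libraries, pooled over all groups, which may be partly technical. T0 replicates were closer than those of later times, so the pooled spread may understate that between the later libraries.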

Additional observations from a re-analysis of the deposited data

How the results depend on the processing

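The number of members called at day 28 over T0 in AGY1612 was 4, and it was 1 at FDR < 0.05, 1 with RLE factors, 1 with total counts, 2 without a filter and 9 with limma voom. Leaving out each library in turn gave 1 to 11. In AGY1611 the number was 3, 2 with total counts and 5 when only the groups compared were fitted, with 2 to 7 over the libraries left out. At day 1 over T0 in AGY1612 it was 1, and it was 0 at FDR < 0.05, with RLE factors, with total counts, without a filter and with the replicate block, 3 with DESeq2, 10 with only the groups compared and 8 with limma voom, with 0 to 9 over the libraries left out. In AGY1611 at day 1 it was 2, and it was 0 at FDR < 0.05, with RLE factors, with total counts and with the replicate block, 1 without a filter, 4 with DESeq2 and 5 with only the groups compared, with 0 to 5 over the libraries left out. From day 1 to day 28, leaving out gave 0 to 1 in AGY1611, the call arising without day 1 replicate 3, and 0 in AGY1612. The strain differences gave 0 calls throughout. With the replicate block the numbers at day 28 over T0 were 4 in AGY1612 and 3 in AGY1611, and 0 from day 1 to day 28. The block was a term for replicate number shared by both strains and all times. It therefore did not model the pairing of day 1 and day 28 libraries within a strain. Between strains, libraries of the same number shared little at day 1 and day 28 (r = -0.00774 to 0.112). Among the members, the calls lost with the block were those of RPT6 at day 28 (FDR = 0.111), RPN10 (FDR = 0.107) and RPT5 and PRE9 at day 1 (FDR = 0.124 each), and PRE5 was called at day 28 in AGY1612 (FDR = 0.0909). Of the pathway genes, DDI1 was lost with the block (FDR = 0.117). Each called member kept its direction under all alternatives. Scaling moved the median of all plasmids at day 28 over T0, which was 0.19 and 0.16 in AGY1612 and AGY1611 with TMM, 0.03 and -0.02 with RLE and -0.11 and -0.14 with total counts. The members' median exceeded that of all plasmids by 0.59 to 0.60 in AGY1612 and 0.62 to 0.63 in AGY1611 over these settings. All groups shared 1 spread per plasmid, so a library of one group enters the tests of the others. Without any AGY1611 T0 library, SEM1 and RPT6 kept log2(fold change) values of 0.79 and 1.30 at day 28 in AGY1612. Their FDR was then 0.112 to 0.113 and 0.111. Why other libraries moved the calls was not tested. Later libraries held fewer counts than T0, which limits rare plasmids such as RPN8, RPT4 and RPN4.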
